A study of Saccharomyces cerevisiae with 6 samples.

Results

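The mitochondrial protein import machinery was described through 36 nuclear genes of Saccharomyces cerevisiae, out of 5479 gene models in the deposited table, of which 5463 were tested. All 36 members had a single tested model. The authors' deposited table carries the standard name for 25 of them, and the other 11 were found through their systematic names, matched to current symbols in the annotation of RefSeq assembly R64.

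Of these members 11 act in or on the outer membrane, 7 in the intermembrane space, 15 in or on the inner membrane and 3 in the matrix. Proteins made in the cytosol enter mitochondria through the translocase of the outer membrane, the TOM complex, and are then sorted. The sorting and assembly machinery (SAM) folds barrel proteins into the outer membrane, small TIM chaperones guide hydrophobic proteins across the intermembrane space, and the MIA pathway oxidises small cysteine-rich proteins there. Proteins with a cleavable presequence pass the TIM23 channel, driven by membrane potential and by a chaperone motor, whereas metabolite carriers are inserted by the TIM22 translocase.

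IMY104, the engineered strain, lacks ACS1 and ACS2, which encode the yeast's acetyl-CoA synthetases (acs1Δ acs2Δ). It carries the centromeric plasmid pUDC140 (CEN6 ARS4) with the Enterococcus faecalis genes pdhA, pdhB, aceF and lpd for a pyruvate dehydrogenase complex, and lplA and lplA2 for lipoylation. CEN.PK113-7D, the laboratory strain it was set against, has ACS1 and ACS2 and, per the labels, no plasmid. Aerobic, glucose-limited chemostats run at 0.10 per h, at pH 5.0 and 30 °C, were used for both strains, and their medium held 500 ng/mL lipoic acid besides glucose at 7.5 g/L. RNA was sequenced from 3 independent cultures of each strain. The question was how transcription differs when cytosolic acetyl-CoA comes from the bacterial complex.

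The deposited values are 1 FPKM value per strain (sequenced fragments scaled to the length of the model and to the library total), combined by the authors over 3 libraries, with the authors' own test. No value per library was given, so the spread between cultures enters only through that test, no SD is printed, and the depth of each library is unknown. A gene is named as called, and as having risen or fallen, where the q-value in the authors' deposited table is under 0.05. In the authors' deposited table ACS1 had 0.882 FPKM in IMY104 and 1094 FPKM in CEN.PK113-7D, and ACS2 had 0.179 FPKM in IMY104 and 494 FPKM in CEN.PK113-7D, so the deletions match the labels. In the table the IMY104 libraries carry the name of a different CEN.PK strain, and the sources used here do not state which marker alleles IMY104 has.

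Few genes of the import machinery were called, and the called changes were small. Of 36 members 5 (13.9%) were called in the authors' deposited table, all 5 higher in IMY104, against 22.6% of all tested models. By direction, 11.6% of all tested models were called higher and 11.0% lower in the authors' deposited table, so the members' share of higher calls lay near the background and no member was called lower. At an unadjusted p under 0.05 in the same Cuffdiff-style test, 7 members were higher and 2 lower in the authors' deposited table, a share of 9 of 36 against 32.2% of all models. With q under 0.01 the count was 2, MAS2 and PAM18, against 16.1% of all models, and with a log2 fold change of at least 0.3 required beside q under 0.05 it was 3, with SOM1, against 17.2% of all models in the authors' deposited table. The risers were MAS2, SOM1, PAM18, TIM23 and TIM17, subunits of the processing peptidase, the inner membrane peptidase, the import motor and the TIM23 channel.

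The members' changes were small, with a median absolute log2 fold change of 0.11, against 0.13 over all tested models in the authors' deposited table. How many of all tested models lay within 0.1 of no change was not counted. On the log2 scale the fold changes, IMY104 over CEN.PK113-7D throughout, ran from -0.21 to 0.35 in the authors' deposited table, and 16 members lay within 0.1 of no change. The median of the members was 0.086 with quartiles of 0.016 and 0.14, against a median of 0.0080 with quartiles of -0.11 and 0.14 over all tested models in the authors' deposited table. Above 0 stood 30 of 36 members (83.3%), against 52.2% of all tested models in the authors' deposited table. No test of the members as a group was made, since genes are not replicates of a strain.

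By compartment, the calls stood in the inner membrane and the matrix. In the authors' deposited table none of 11 outer membrane members and none of 7 intermembrane space members was called, and in neither group did a member reach an unadjusted p under 0.05. Among 15 inner membrane members 4 rose and none fell, and among 3 matrix members 1 rose and none fell in the authors' deposited table. These were 26.7% of the inner membrane members and 33.3% of the matrix members, against 22.6% of all tested models called and 11.6% called higher in the authors' deposited table. The median log2 fold change was 0.019 for the outer membrane, 0.092 for the intermembrane space, 0.14 for the inner membrane and 0.042 for the matrix in the authors' deposited table. Whether the compartments differ from one another was not tested. The inner membrane members had the widest range, from -0.21 for PAM17 to 0.32 for SOM1, and form the largest of the groups.

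**Figure D1:**
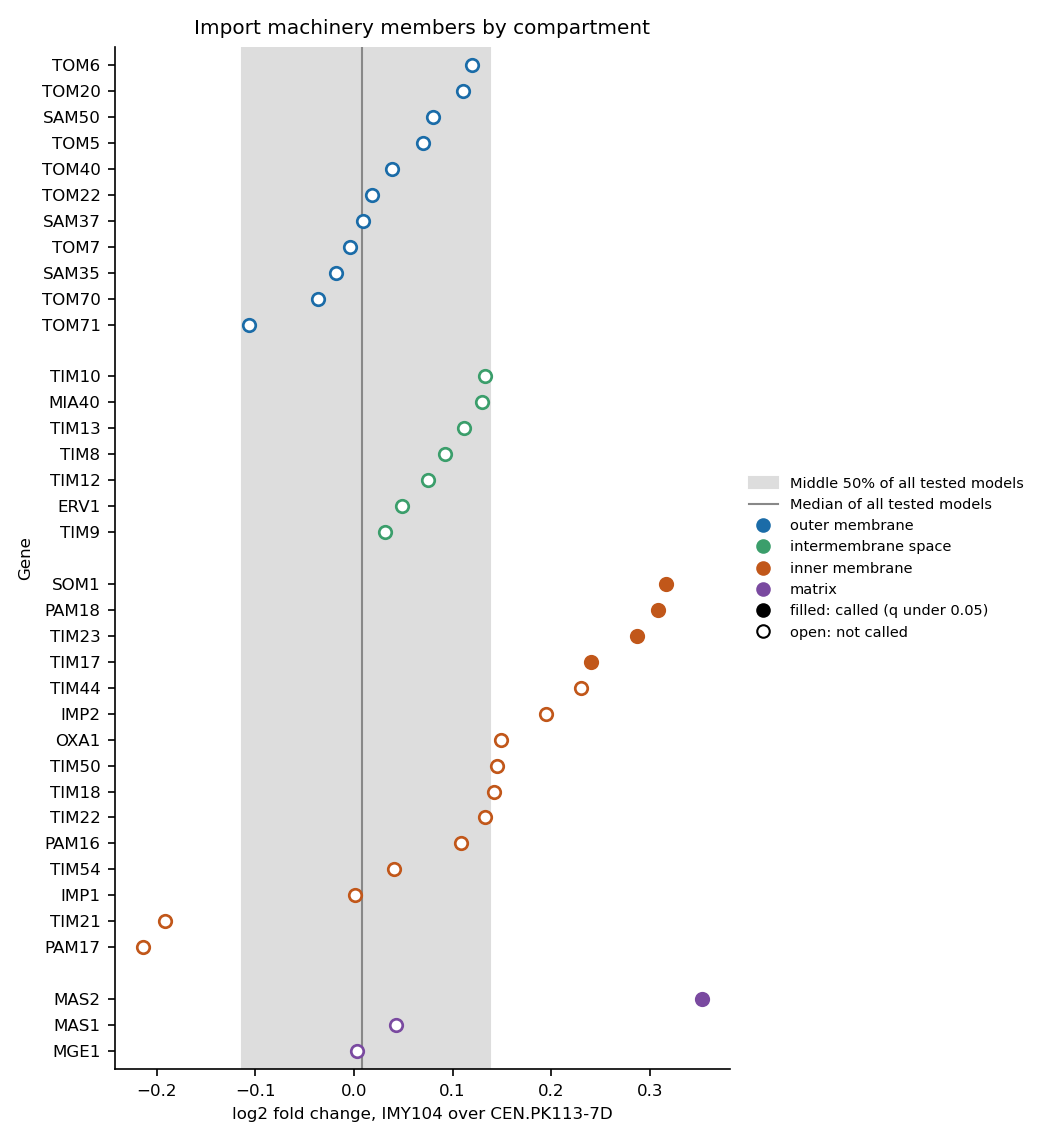
Log2 fold change (IMY104 relative to CEN.PK113-7D) for the 36 members, grouped by compartment and sorted within it. Filled points were called in the authors' deposited table and open points were not. The grey band spans the quartiles of all tested models (-0.11 to 0.14). The 5 filled points all lie to the right of the band, and PAM17 and TIM21 lie to its left without a call.

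The genes that rose are shown first with a stretch of their promoters, because they are the called members. Each line gives 200 bases, from 250 to 51 bases before the start codon, read 5′ to 3′ on the gene's strand from RefSeq assembly R64. R64 is the genome of another laboratory strain, S288C, and is not the assembly behind the deposited coordinates. By the deposited coordinates THR1 lies 245 bp upstream of MAS2. The MAS2 stretch thus takes in the sequence between MAS2 and THR1 and is not particular to MAS2. THR1 was itself called higher (log2 fold change 0.42, q = 0.00047 in the authors' deposited table). TIM44, whose q-value lay just above the threshold, and MIA40, which was not called, are added for the motifs they hold. Capitals mark AGGGG, the stress response element, TTACCCG, the site of the general factor Reb1, and CCAAT, the box read by the Hap complex that activates respiratory genes.
TIM17 promoter, chr10:146851-147050, plus strand: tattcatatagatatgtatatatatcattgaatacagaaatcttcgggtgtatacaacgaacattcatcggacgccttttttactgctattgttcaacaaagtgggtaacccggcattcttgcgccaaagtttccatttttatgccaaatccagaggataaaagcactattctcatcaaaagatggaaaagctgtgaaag
TIM23 promoter, chr14:662663-662862, plus strand: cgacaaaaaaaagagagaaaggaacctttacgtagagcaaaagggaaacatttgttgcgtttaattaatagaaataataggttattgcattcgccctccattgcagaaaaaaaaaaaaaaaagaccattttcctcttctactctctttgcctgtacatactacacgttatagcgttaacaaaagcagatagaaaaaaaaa
PAM18 promoter, chr12:166134-166333, minus strand: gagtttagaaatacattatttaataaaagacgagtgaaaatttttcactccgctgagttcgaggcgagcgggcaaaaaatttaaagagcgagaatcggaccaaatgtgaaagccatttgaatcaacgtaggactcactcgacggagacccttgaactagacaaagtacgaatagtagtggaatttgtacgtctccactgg
MAS2 promoter, chr8:159243-159442, minus strand: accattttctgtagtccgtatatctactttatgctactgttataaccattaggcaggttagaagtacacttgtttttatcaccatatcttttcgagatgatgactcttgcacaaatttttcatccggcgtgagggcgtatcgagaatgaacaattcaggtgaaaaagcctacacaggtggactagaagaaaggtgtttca
SOM1 promoter, chr5:42675-42874, minus strand: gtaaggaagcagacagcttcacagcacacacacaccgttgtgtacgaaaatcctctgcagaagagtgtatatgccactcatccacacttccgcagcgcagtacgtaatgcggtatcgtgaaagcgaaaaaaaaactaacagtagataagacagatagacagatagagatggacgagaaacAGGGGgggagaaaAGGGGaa
TIM44 promoter, chr9:310915-311114, plus strand: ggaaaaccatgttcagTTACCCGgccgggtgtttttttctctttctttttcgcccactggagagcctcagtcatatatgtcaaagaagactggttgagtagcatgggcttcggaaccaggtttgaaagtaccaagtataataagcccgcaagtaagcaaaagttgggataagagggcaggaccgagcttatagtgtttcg
MIA40 promoter, chr11:75571-75770, plus strand: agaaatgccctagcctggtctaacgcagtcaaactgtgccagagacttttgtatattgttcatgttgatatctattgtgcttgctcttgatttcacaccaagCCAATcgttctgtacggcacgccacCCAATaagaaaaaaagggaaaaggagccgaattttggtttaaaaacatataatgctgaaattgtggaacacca

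Motifs were searched on both strands of a window from 250 bases before to 50 bases after the start codon. CCAAT stood in 16 of 36 member windows (44.4%), against 43.3% of 6001 windows of protein-coding genes in R64. None of the 5 risers held CCAAT, while MIA40 held 3 copies, 2 of them in the stretch printed above. AGGGG stood in 5 member windows (13.9%), against 21.6% of all windows, and SOM1 was the only riser with it, holding 2 copies. TTACCCG stood in 2 member windows, those of TIM9 and TIM44 (5.56%, against 7.08% of all windows), and CACGTG, the E-box, in 1, that of SAM35 (2.78%, against 2.92%). These shares lay near or below those of all promoters, and a match or its absence is a description of these letters only.

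The TIM23 channel is the inner membrane gate for presequence-bearing proteins. TIM23 (YNR017W, chromosome 14, 656939 to 657607, plus strand), the channel subunit, had 272 FPKM in IMY104 and 223 FPKM in CEN.PK113-7D in the authors' deposited table. It was 1.22-fold higher, a log2 fold change of 0.29 with q = 0.0140 in the authors' deposited table. TIM17 (YJL143W, chromosome 10, 129586 to 130062, plus strand), its partner in the membrane, had 539 FPKM in IMY104 and 457 FPKM in CEN.PK113-7D, a log2 fold change of 0.24 with q = 0.0435 in the authors' deposited table. Both core subunits of the channel thus rose, and the ratio of TIM17 to TIM23 was 1.99 in IMY104 and 2.05 in CEN.PK113-7D. TIM50, the receptor that hands presequences from TOM to the channel, had 108 FPKM in IMY104 and 98.1 FPKM in CEN.PK113-7D without a call in the authors' deposited table (q = 0.288).

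TIM21, a non-essential regulatory subunit that couples the channel to the TOM complex and the respiratory chain, went the other way without a call. It had 319 FPKM in IMY104 and 364 FPKM in CEN.PK113-7D, a log2 fold change of -0.19 with an unadjusted p of 0.0399 and q = 0.131 in the authors' deposited table. Of the 4 channel members 2 rose, none fell and 2 were not called, against 11.6% of all tested models called higher and 11.0% called lower.

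The import motor pulls the chain into the matrix. PAM18 (YLR008C, chromosome 12, 150823 to 151329, minus strand), the J protein that stimulates the motor's chaperone, had 294 FPKM in IMY104 and 238 FPKM in CEN.PK113-7D in the authors' deposited table. That is 1.24-fold higher, a log2 fold change of 0.31 with q = 0.00616 in the authors' deposited table. PAM16, the J-like partner that holds PAM18 in check, had 427 FPKM in IMY104 and 396 FPKM in CEN.PK113-7D without a call in the authors' deposited table (log2 fold change 0.11, q = 0.454). The level of PAM16 over that of PAM18 was 1.45 in IMY104 and 1.67 in CEN.PK113-7D, and whether the partners changed differently was not tested.

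TIM44, the scaffold that ties the motor to the channel, had 109.5 FPKM in IMY104 and 93.4 FPKM in CEN.PK113-7D in the authors' deposited table. Its log2 fold change was 0.23, close to that of TIM17, and its q of 0.0588 missed the threshold in the authors' deposited table. PAM17, a non-essential subunit that helps the motor assemble on the channel, had a log2 fold change of -0.21, with 456 FPKM in IMY104 and 529 FPKM in CEN.PK113-7D (q = 0.0830 in the authors' deposited table). It was the lowest member as deposited, and after quantile normalization it had -0.13 and TIM21 was the lowest with -0.18. MGE1, the nucleotide exchange factor of the motor's chaperone, had nearly the same value in both strains, 487 FPKM in IMY104 and 485 FPKM in CEN.PK113-7D in the authors' deposited table. The channel and motor thus held 3 of the 5 risers. Of 4 channel members 2 rose, and of 5 motor members 1 rose, against 11.6% of all tested models called higher. PAM17 and TIM21, the lowest-placed members and neither of them called, also stand in these units, a pairing noticed after the values were seen.

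Presequences are cut off by the matrix processing peptidase, a dimer of MAS1 and MAS2. MAS2 (YHR024C, chromosome 8, 151006 to 152454, minus strand), the subunit that binds the presequence, had the largest log2 fold change of the 36 members as deposited, and stood below SOM1 and TOM6 after quantile normalization. It had 101 FPKM in IMY104 and 78.8 FPKM in CEN.PK113-7D, 1.28-fold higher with a log2 fold change of 0.35 (q = 0.00047 in the authors' deposited table). Its p of 5e-05 is the smallest in the authors' deposited table, where 581 models share it. MAS1, the catalytic subunit, had 148 FPKM in IMY104 and 144 FPKM in CEN.PK113-7D without a call in the authors' deposited table (log2 fold change 0.042, q = 0.814). The level of MAS1 over that of MAS2 was 1.47 in IMY104 and 1.83 in CEN.PK113-7D, so the transcripts of the dimer stood closer in IMY104, a difference that was not tested itself.

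The inner membrane peptidase removes sorting signals on the outer face of the inner membrane. SOM1 (YEL059C-A, chromosome 5, 40469 to 40693, minus strand), its small subunit, had 542 FPKM in IMY104 and 435 FPKM in CEN.PK113-7D in the authors' deposited table. It was 1.25-fold higher, a log2 fold change of 0.32 with q = 0.0266 in the authors' deposited table, on a model of only 225 bp. The catalytic subunit IMP2 had 137 FPKM in IMY104 and 119.8 FPKM in CEN.PK113-7D, a log2 fold change of 0.20 with an unadjusted p of 0.0469 and q = 0.148 in the authors' deposited table. The other catalytic subunit, IMP1, had 273 FPKM in IMY104 and 272 FPKM in CEN.PK113-7D in the authors' deposited table. IMP1 rests on a model of 492 bp, shorter than its gene in R64 (573 bp), and every other member's model has the length of its R64 gene.

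The TIM22 translocase and OXA1, which insert carriers and proteins of mitochondrial origin into the inner membrane, showed no call. TIM22, the carrier channel, had 82.9 FPKM in IMY104 and 75.6 FPKM in CEN.PK113-7D in the authors' deposited table. TIM18, its partner resembling a subunit of succinate dehydrogenase, had 146 FPKM in IMY104 and 132 FPKM in CEN.PK113-7D, and TIM54, which docks the small TIM chaperones, had 123 FPKM in IMY104 and 119 FPKM in CEN.PK113-7D in the authors' deposited table. OXA1, the insertase for proteins exported from the matrix, was the member with the lowest level, 52.4 FPKM in IMY104 and 47.2 FPKM in CEN.PK113-7D in the authors' deposited table. Their log2 fold changes lay between 0.040 (TIM54) and 0.15 (OXA1), with q-values from 0.291 to 0.826 in the authors' deposited table.

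Members of the intermembrane space all stood slightly above 0 and none was called. TIM9 and TIM10 form the essential chaperone for carriers, TIM8 and TIM13 form a second such complex, and TIM12 docks the first at the TIM22 translocase. In the authors' deposited table TIM10 had 3975 FPKM in IMY104 and 3625 FPKM in CEN.PK113-7D, and TIM9 had 1888 FPKM in IMY104 and 1847 FPKM in CEN.PK113-7D. TIM8 had 1299.9 FPKM in IMY104 and 1219 FPKM in CEN.PK113-7D, TIM13 had 507 FPKM in IMY104 and 469 FPKM in CEN.PK113-7D, and TIM12 had 292 FPKM in IMY104 and 277 FPKM in CEN.PK113-7D in the authors' deposited table. Their log2 fold changes ran from 0.031 (TIM9) to 0.13 (TIM10), the lowest q-value being 0.355 for TIM10, in the authors' deposited table. Partner levels were not equal in either strain, with TIM10 at 2.11 times TIM9 in IMY104 and 1.96 times in CEN.PK113-7D, and TIM8 at 2.56 times TIM13 in IMY104 and 2.60 times in CEN.PK113-7D.

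MIA40, the oxidoreductase that traps cysteine-rich proteins in the intermembrane space, had 432 FPKM in IMY104 and 394 FPKM in CEN.PK113-7D in the authors' deposited table (log2 fold change 0.13, q = 0.379). ERV1, the sulfhydryl oxidase that re-oxidises MIA40, had 297 FPKM in IMY104 and 287 FPKM in CEN.PK113-7D in the authors' deposited table (log2 fold change 0.049, q = 0.776). Neither member of this disulfide relay was called.

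The outer membrane members had the median nearest to 0 of the 4 compartments. The small TOM subunits TOM5, TOM6 and TOM7, which stabilise the channel, had the highest FPKM values with TIM10. TOM5 had 6039 FPKM in IMY104 and 5753 FPKM in CEN.PK113-7D, TOM6 had 4677 FPKM in IMY104 and 4304 FPKM in CEN.PK113-7D, and TOM7 had 3503 FPKM in IMY104 and 3512 FPKM in CEN.PK113-7D in the authors' deposited table. The channel subunit TOM40 had 323 FPKM in IMY104 and 314 FPKM in CEN.PK113-7D, and TOM22, the central receptor that organises the complex, had 1048 FPKM in IMY104 and 1034 FPKM in CEN.PK113-7D in the authors' deposited table. The presequence receptor TOM20 had 334 FPKM in IMY104 and 309.5 FPKM in CEN.PK113-7D in the authors' deposited table. The lowest q-value among these 6 genes was 0.392, that of TOM6, in the authors' deposited table.

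TOM70, the receptor for carriers and other hydrophobic proteins, and its paralog TOM71 had the lowest log2 fold changes of the outer membrane members. TOM70 had 193 FPKM in IMY104 and 198 FPKM in CEN.PK113-7D, and TOM71 had 70.5 FPKM in IMY104 and 75.8 FPKM in CEN.PK113-7D in the authors' deposited table. The log2 fold change was -0.037 for TOM70 (q = 0.850) and -0.11 for TOM71 (q = 0.470) in the authors' deposited table. These paralogs share 65.4% of 1773 aligned coding bases in R64 and no identical run longer than 12 bases. No 50-base word of any member gene occurs a second time in R64, so reads of such length would not be shared with another locus of that genome.

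No member of the SAM complex was called. SAM50, the barrel that inserts other barrel proteins, had 88.5 FPKM in IMY104 and 83.7 FPKM in CEN.PK113-7D, SAM35 had 95.5 FPKM in IMY104 and 96.7 FPKM in CEN.PK113-7D, and SAM37 had 104 FPKM in IMY104 and 103 FPKM in CEN.PK113-7D in the authors' deposited table. SAM35 helps recognise the barrel signal and SAM37 helps release the finished protein. Their q-values were 0.611 for SAM50, 0.925 for SAM35 and 0.966 for SAM37 in the authors' deposited table. The 3 subunits also stood within a narrow range of levels in both strains.

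**Figure D2:**
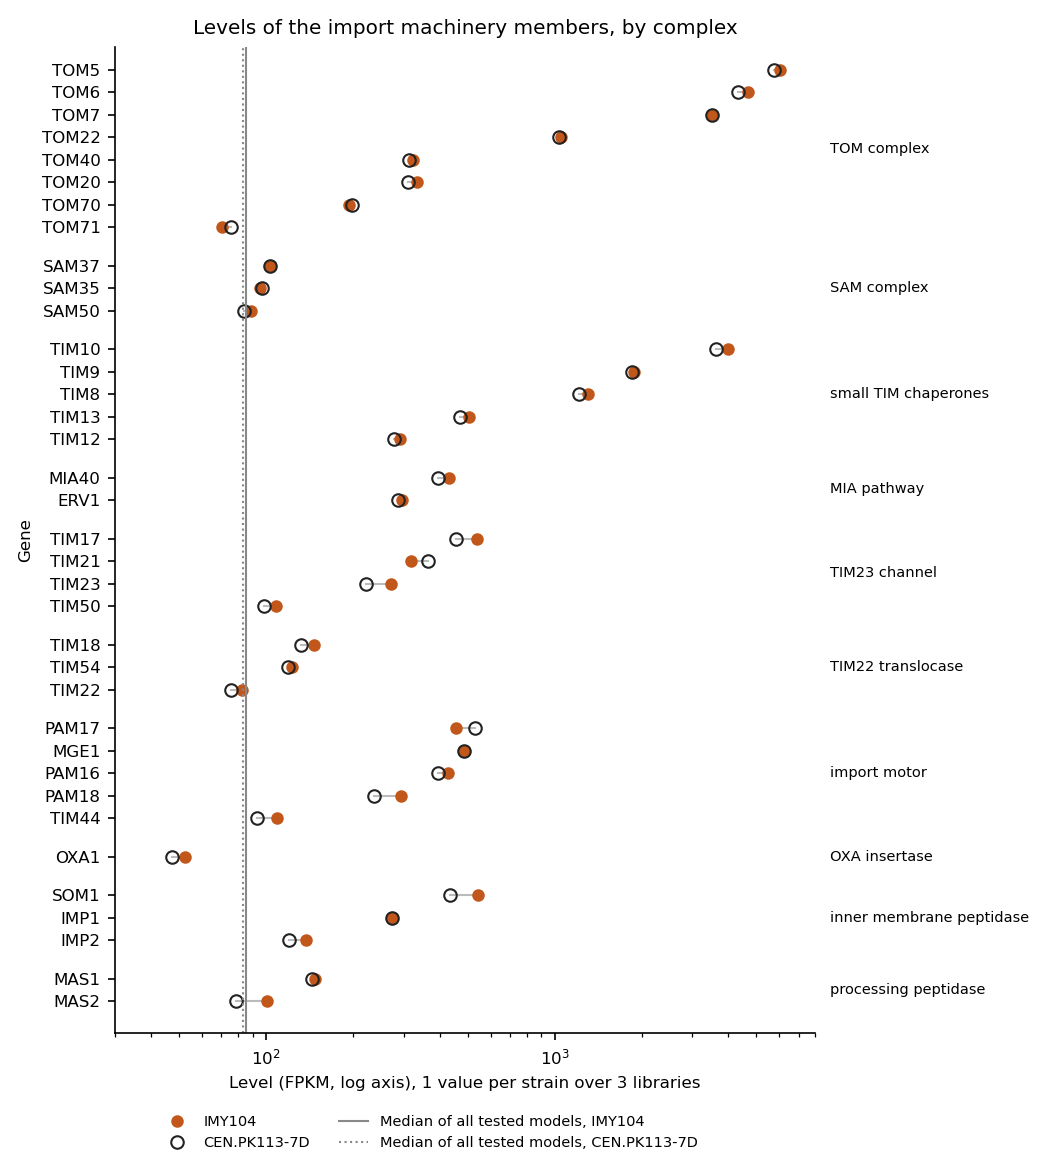
Level of each member in IMY104 (filled) and CEN.PK113-7D (open), in FPKM on a log axis, grouped by complex. Vertical lines mark the median of all tested models in each strain. The points of a gene nearly overlap in most rows, levels span from OXA1 (52.4 FPKM in IMY104) to TOM5 (6039 FPKM in IMY104), and the widest gaps belong to MAS2, SOM1, PAM18, TIM23 and TIM17.

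Members differed far more from one another in level than between strains. Of the 36 members 33 lay above the median level of all tested models and 3 below it, where the median of tested models was 85.3 FPKM in IMY104 and 83.6 FPKM in CEN.PK113-7D in the authors' deposited table. Among the top 10% of tested models by mean level were 7 members, 6 of them with models shorter than 350 bp, the insert size given in the labels. In all, 9 members are that short (TOM5, TOM6, TOM7, TIM8, TIM9, TIM10, TIM12, TIM13 and SOM1). Levels scaled by length can be overstated in models shorter than the sequenced fragments, and the part of this in the levels was not tested.

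**Figure D3:**
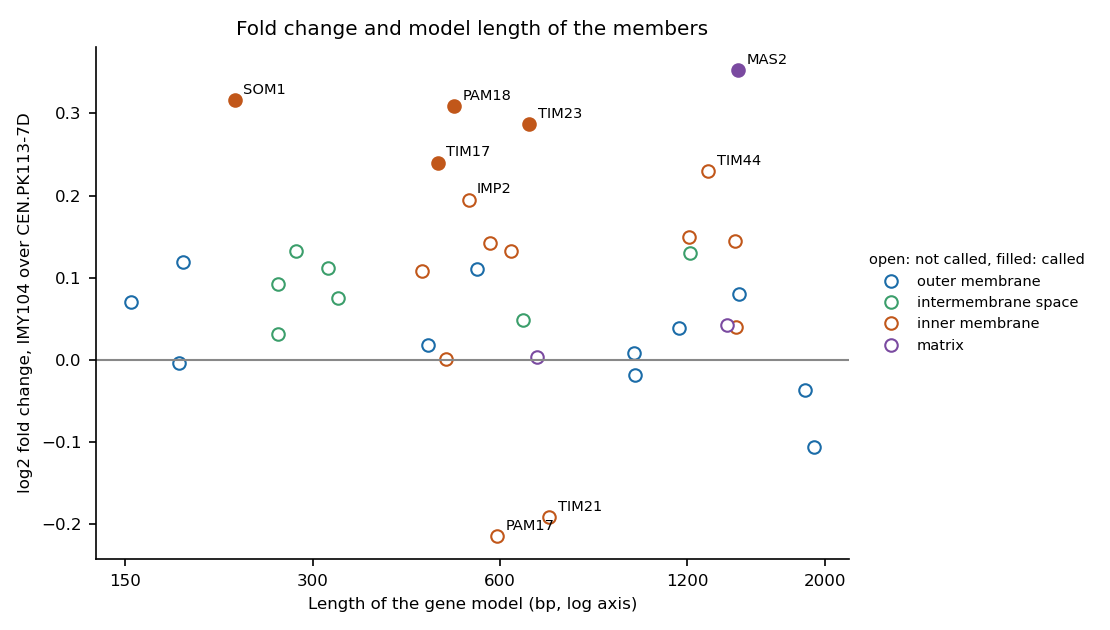
Log2 fold change (IMY104 relative to CEN.PK113-7D) against the length of the gene model in bp (log axis), by compartment, with called members filled. Called members stand at short and long models alike, from SOM1 (225 bp) to MAS2 (1449 bp), and PAM17 and TIM21 lie lowest.

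Position was examined because the labels' protocols describe no strand-marking step, so overlapping transcripts could not be told apart. No member's model overlaps another model, and the smallest gap to a neighbour was 46 bp. The ends of the transcripts are not given, so gaps between models cannot show whether transcripts overlap. Of the 10 models next to the 5 risers, 3 were called higher and 2 lower, where 11.6% and 11.0% of all tested models were called higher and lower in the authors' deposited table. Those called higher were RCF2 beside TIM23, PCM1 beside SOM1 and THR1 beside MAS2. Those called lower were ROQ1 beside TIM17 and ACC1 beside TIM23. Whether neighbours changed together was not tested. TIM9 lies 240 bp downstream of URA3 on the same strand. URA3, named after its values were seen, had 1060 FPKM in IMY104 and 142 FPKM in CEN.PK113-7D, a log2 fold change of 2.90, while that of TIM9 was 0.031 in the authors' deposited table. Whether the URA3 reads of IMY104 came from this locus or from a copy elsewhere, such as on a plasmid, was not tested.

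Of 38 further import factors outside the member list, 2 rose and 6 fell (21.1% called, against 22.6% of all tested models) in the authors' deposited table. Their median log2 fold change was 0.023 in the authors' deposited table. Over all tested models 11.6% were called higher and 11.0% lower. The genes that fell were chaperones and factors of the response to stalled import, while other chaperones of the list, among them SSC1 and HSP60, were not called. The genes that rose act in outer membrane insertion and matrix folding. CIS1, which recruits the extractor ATPase when precursors clog the TOM channel, had 77.0 FPKM in IMY104 and 175 FPKM in CEN.PK113-7D, a log2 fold change of -1.18 (q = 0.00047 in the authors' deposited table). UBX2, which also clears the TOM channel of stalled proteins, had 40.6 FPKM in IMY104 and 50.3 FPKM in CEN.PK113-7D, a log2 fold change of -0.31 (q = 0.00777 in the authors' deposited table). MSP1, the extractor ATPase itself, received no call in the authors' deposited table (log2 fold change 0.096, q = 0.522).

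Matrix folding factors moved in both directions. HSP78, a disaggregase, had 402 FPKM in IMY104 and 583 FPKM in CEN.PK113-7D, and HSP10, the lid of the HSP60 chamber, had 4076 FPKM in IMY104 and 5719 FPKM in CEN.PK113-7D in the authors' deposited table. Both fell, HSP78 by 0.54 and HSP10 by 0.49 on the log2 scale, with q = 0.00047 each in the authors' deposited table. After quantile normalization HSP78 had -0.48 and HSP10 -0.27. HSP60, the chamber, had 410.2 FPKM in IMY104 and 473 FPKM in CEN.PK113-7D without a call in the authors' deposited table (log2 fold change -0.21, q = 0.131). CPR3, a prolyl isomerase that aids folding of imported proteins, rose with a log2 fold change of 0.31, having 595 FPKM in IMY104 and 480.5 FPKM in CEN.PK113-7D (q = 0.00777 in the authors' deposited table).

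SSC1, the mitochondrial HSP70 that powers the motor and is stimulated by PAM18, was not called. It had 671 FPKM in IMY104 and 669 FPKM in CEN.PK113-7D in the authors' deposited table (log2 fold change 0.0040, q = 0.987). The cytosolic J proteins YDJ1 and SIS1, which help keep precursors unfolded, fell, with log2 fold changes of -0.38 (q = 0.00126) and -0.27 (q = 0.0294) in the authors' deposited table. The other J proteins of cytosolic delivery, DJP1 and XDJ1, were not called and had positive values, 0.21 (p = 0.0229, q = 0.0869) and 0.072 (q = 0.660) in the authors' deposited table. YDJ1 had 572 FPKM in IMY104 and 745 FPKM in CEN.PK113-7D, and SIS1 had 505 FPKM in IMY104 and 609 FPKM in CEN.PK113-7D in the authors' deposited table. MIM2, a subunit of the outer membrane insertase for helical proteins, rose with 0.39 on a model of 264 bp, with 805 FPKM in IMY104 and 616 FPKM in CEN.PK113-7D (q = 0.000874 in the authors' deposited table). None of 7 factors listed with the TIM23 channel and motor, 4 insertion factors and 4 processing peptidases was called in the authors' deposited table. Nor was any of 8 genes listed with the proteases of the inner membrane and matrix, some of which encode partner proteins. Among the genes of these 4 lists, 1 had an unadjusted p under 0.05, MGR2 of the channel (log2 fold change 0.20, p = 0.0373, q = 0.125 in the authors' deposited table). Over all tested models 22.6% were called and 32.2% had an unadjusted p under 0.05.

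**Figure D4:**
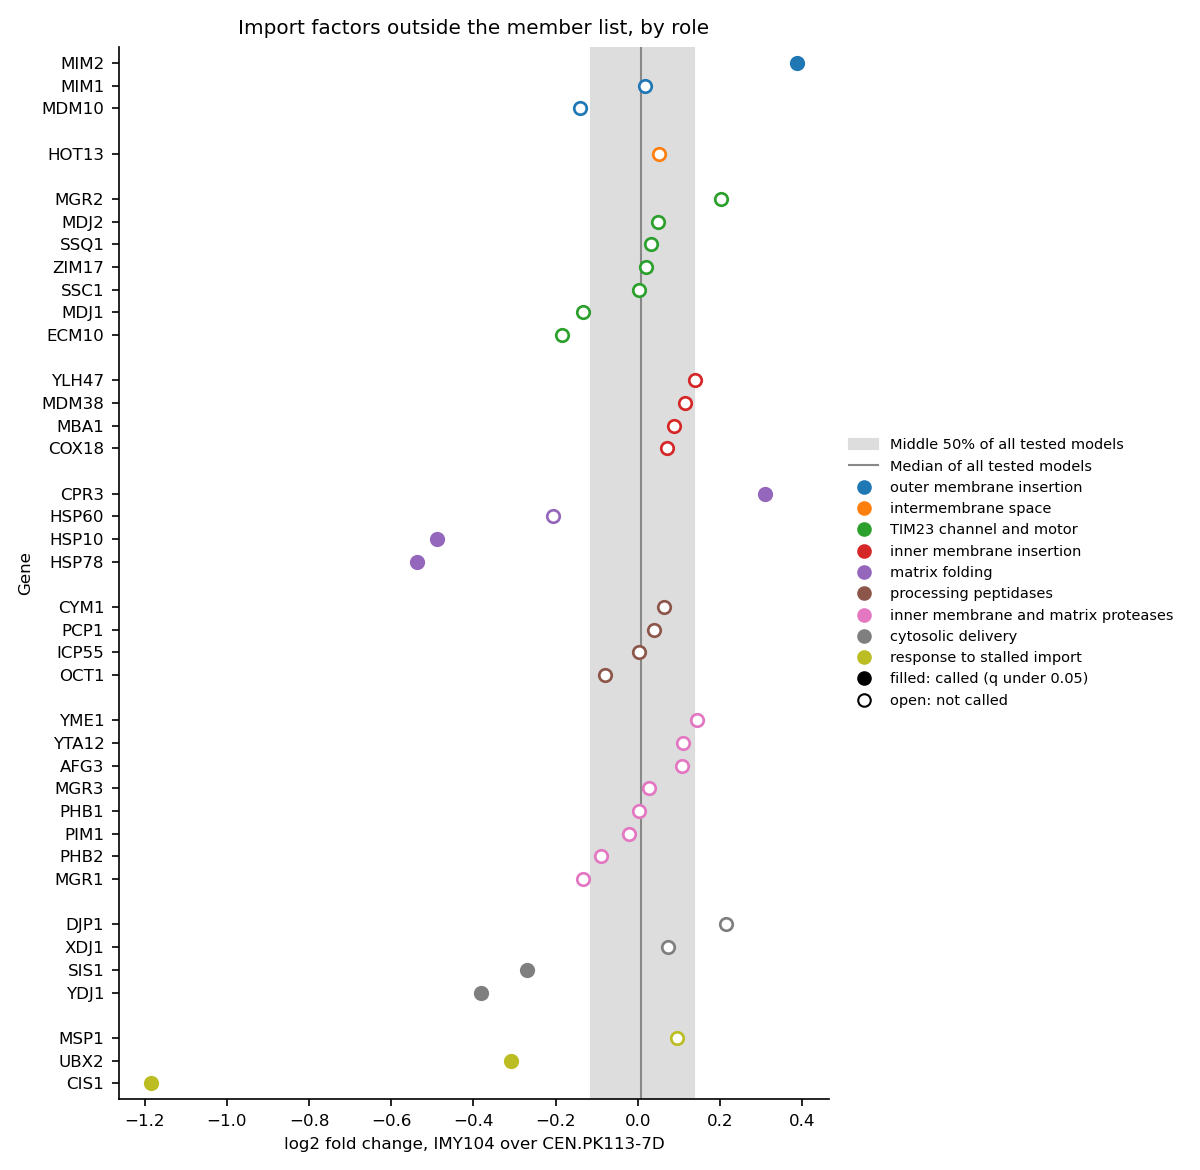
Log2 fold change (IMY104 relative to CEN.PK113-7D) for 38 import factors outside the member list, grouped by role, with called genes filled and the quartiles of all tested models in grey. The 6 genes called lower are CIS1, HSP78, HSP10, YDJ1, UBX2 and SIS1, and the 2 called higher are MIM2 and CPR3.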

How the data were processed

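RNA of 3 cultures per strain was sequenced as read pairs after cDNA was fragmented by nebulization, per the labels' protocols. The submitters' processing notes name Cufflinks, Cuffdiff, SAMtools 0.1.7-r510, BWA 0.5.9-r16 and CASAVA 1.8.2 with no role for each, and no genome build.

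Per the file headers, the authors deposited 1 FPKM value per strain, a signed fold ratio and the log2 fold change (IMY104 relative to CEN.PK113-7D), a test statistic (a score), and a p-value and q-value per gene model. Models are JIGSAW predictions on a CEN.PK assembly, per the model names. Coordinates are those of that assembly, except for the promoter stretches, which carry R64 coordinates.

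limma had been planned for values per library. With none given, the deposited q-values over all 5463 tested models were used. Recomputed Benjamini-Hochberg values differed from them by at most 5.16e-07. Members and lists were chosen with earlier results of these data known. The longest model stood for a gene. All members are named, and of the outside factors those called plus SSC1, HSP60 and HSP10. MSP1, MGR2, DJP1, XDJ1, URA3, THR1, RCF2, PCM1, ROQ1 and ACC1 were named after their values were seen. Motifs were searched in R64 with Python 3.11.15, and the adjustment and quantile normalization were tested on simulated data. The planned protein features were not run, as no protein table was at hand.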

Additional observations from a re-analysis of the deposited data

How the results depend on the processing

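The 5 calls among the members depend on the threshold. With q under 0.01 there were 2 (MAS2 and PAM18, against 16.1% of all tested models). With a log2 fold change of at least 0.3 added to q under 0.05 there were 3 (17.2% of all models). With an unadjusted p under 0.05 there were 9 (32.2% of all models). Counting as members only the 25 genes named as such in the deposited table left 3. Models of at least 300 bp gave 4, without SOM1. A minimum mean of 10 FPKM or the shortest model per gene gave 5, but neither setting could remove or exchange a member. OXA1, the member with the lowest level, lay above 10 FPKM in both strains, and no member had more than 1 model. The inner membrane count of 4 was 1 with q under 0.01, against 16.1% of all tested models. It was 8 with an unadjusted p under 0.05, 6 higher and 2 lower, against 32.2% of all tested models. Placing PAM16, PAM18 and TIM44 in the matrix and TIM12 in the inner membrane made the matrix count 2 in place of 1 and the inner membrane count 3. The median log2 fold change of the members ran from 0.0786 after centring on the median of all genes to 0.1239 after quantile normalization. Quantile normalization moved 15 of 36 member values by over 1.5 times, among them TOM5 (0.35 in place of 0.070), and HSP10 outside the list (-0.27 in place of -0.49). It turned the direction of TOM7, and centring that of IMP1 and MGE1. No called member changed direction under quantile normalization. The other settings could not have turned one. A pseudocount keeps the direction of any value, and centring lowered each value by only 0.0076. The unadjusted p and the name column were chosen as alternatives after seeing the data. No replicate could be left out and no paired analysis was possible because the deposited columns are combined over the libraries of a strain.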
